A study of Mus musculus with 16 samples.

Results

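The receptors and ligands of the Notch pathway were examined at the RNA level in chondrocyte-enriched cells of newborn mice. The set held 8 genes chosen by name, of 55414 genes counted in each library: the receptors *Notch1*, *Notch2*, *Notch3* and *Notch4* and the ligands *Jag1*, *Jag2*, *Dll1* and *Dll4*. Each had an entry in all 16 count files, and they were read across 4 groups of 4 libraries each. The groups were control vehicle, *Notch2tm1.1Ecan* vehicle, control TNFα and *Notch2tm1.1Ecan* TNFα, where the labels write wild type for control and Notch2 mutant for the other genotype. *Notch2tm1.1Ecan* mice were heterozygous for an allele with a stop codon ahead of the sequence for the PEST domain, which leaves a stable Notch2 intracellular domain and a gain of Notch2 function. The allele was present in every tissue, so that no Cre or promoter restricted it to cartilage, and control mice were littermates from a C57BL/6 background. Cells came from the epiphyses of the limbs of 3- to 4-day-old pups of both sexes, pooled, and were grown in monolayer. They were exposed for 6 h to PBS as the vehicle or to TNFα at 50 ng/ml. The labels gave serum deprivation for the TNFα groups only, whereas the study's text gave the absence of serum for both, so an effect of TNFα and one of serum removal cannot be told apart on the labels. The labels call the libraries of a group biological replicates, but nothing says that they came from separate litters or cultures, and p-values measure the spread between these libraries, which may be technical.

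Notch receptors are single-pass proteins that bind Jagged and Delta-like ligands on a neighboring cell. Binding is followed by cleavage of the receptor, first by an ADAM protease and then by γ-secretase, and the freed intracellular domain enters the nucleus, where it joins Rbpj and Mastermind-like proteins on target genes such as *Hes1* and *Heyl*. In cartilage, Notch activity is known to restrain chondrocyte differentiation and matrix synthesis. TNFα is an inflammatory cytokine that acts largely through NF-κB.

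Total counts over genes ranged from 13471143 to 18677402 in control vehicle, from 14781440 to 44237300 in *Notch2tm1.1Ecan* vehicle, from 12552727 to 19220459 in control TNFα and from 3439726 to 17155897 in *Notch2tm1.1Ecan* TNFα libraries. The shallow library was *Notch2tm1.1Ecan* TNFα replicate 4. Control vehicle replicate 4 stood apart: 8 genes known to be induced by TNFα (among them *Icam1* and *Ccl2*) summed to 878 CPM (counts scaled by library size) in it, and to 138 CPM in the lowest library of the group. Control vehicle replicate 4 also lay at -16.5 on the first principal component, the other vehicle libraries lying between -52.2 and -49.9, and control TNFα replicate 4 lay at 35.8, where the other TNFα libraries lay between 46.7 and 50.5. All 8 TNFα-induced genes rose with TNFα in both genotypes. All 10 chondrocyte markers were detected in every library, *Col2a1* at a mean of 37601 CPM in control vehicle. Fewer cells of a type and less RNA per cell cannot be told apart in these bulk samples.

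Sequences upstream of 4 members are shown because *Notch2*, *Notch3* and *Jag1* rose with TNFα in at least 1 genotype, while *Jag2* did not pass the test although its window holds the motif searched for. *Dll1* also rose, but its window is not shown because 132 of the 250 bases lie in exons of *Dll1* itself. Each is the 250 bases before the start of the canonical transcript, written 5′ to 3′ on the strand of the gene, from the GRCm39 genome with GENCODE annotation. Capitals mark a match to the NF-κB consensus motif, searched on both strands. The windows are chr3:97920550-97920799 (plus strand) for *Notch2*, chr12:112893438-112893687 (minus strand) for *Jag2*, chr17:32385894-32386143 (minus strand) for *Notch3* and chr2:136958694-136958943 (minus strand) for *Jag1*.
Notch2: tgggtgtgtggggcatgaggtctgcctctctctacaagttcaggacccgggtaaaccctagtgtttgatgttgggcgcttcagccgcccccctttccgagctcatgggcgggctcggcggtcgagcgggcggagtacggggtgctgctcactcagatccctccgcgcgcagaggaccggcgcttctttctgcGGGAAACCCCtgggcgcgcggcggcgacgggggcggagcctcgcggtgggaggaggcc
Jag2: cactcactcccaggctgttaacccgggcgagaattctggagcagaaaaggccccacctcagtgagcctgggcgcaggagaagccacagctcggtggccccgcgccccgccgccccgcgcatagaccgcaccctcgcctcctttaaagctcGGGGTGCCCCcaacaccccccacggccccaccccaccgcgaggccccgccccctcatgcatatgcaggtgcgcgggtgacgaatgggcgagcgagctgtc
Notch3: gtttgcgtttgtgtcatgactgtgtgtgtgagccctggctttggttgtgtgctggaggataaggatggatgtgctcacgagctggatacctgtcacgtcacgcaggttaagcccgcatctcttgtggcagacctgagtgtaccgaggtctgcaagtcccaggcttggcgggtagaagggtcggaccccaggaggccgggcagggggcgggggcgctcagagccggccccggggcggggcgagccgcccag
Jag1: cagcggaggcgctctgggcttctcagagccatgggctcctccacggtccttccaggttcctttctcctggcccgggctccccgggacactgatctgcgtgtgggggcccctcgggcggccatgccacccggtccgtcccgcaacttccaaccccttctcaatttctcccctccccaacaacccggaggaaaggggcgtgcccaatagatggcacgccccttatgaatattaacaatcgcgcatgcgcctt
In *Notch2* the match lay 58 to 49 bases before the start and read as a match on both strands. In *Jag2* it lay 100 to 91 bases before the start, on the strand opposite to the gene. The other 6 members, *Dll1* with its partly exonic window among them, had no match, and 4.23% of the windows of 21770 protein-coding genes held one. The core motif of Rbpj, TGGGAA on either strand, was in 0 of the 8 windows and in 22.7% of all windows. These are matches of letters in a short window and are no evidence of binding.

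To order the members by level, CPM was divided by the length of the gene's merged exons in kb. *Notch2* was the most abundant member in every group, followed by *Jag1*. Per kb, *Notch2* averaged 11.5 ± 1.75 (SD, n = 4) CPM in control vehicle, and *Jag1* averaged 4.55 ± 0.494 CPM. *Notch1* followed at 2.80 ± 0.230 CPM per kb and *Notch3* at 1.14 ± 0.0966. *Dll1*, *Jag2* and *Notch4* were at 0.279, 0.157 and 0.0774 CPM per kb, and *Dll4* had 20 counts in all 16 libraries together, between 0 and 4 in any one.

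The order was the same in 3 of the 4 groups. In *Notch2tm1.1Ecan* TNFα cells *Notch3*, at 4.45 CPM per kb, stood above *Notch1*, at 4.04, but their libraries overlapped. Per kb their libraries also overlapped in control TNFα cells, where *Notch1* was at 2.88 and *Notch3* at 2.47. This order depends on the merged exon lengths, 14232 bases for *Notch1* and 9009 for *Notch3*. Before division by length *Notch1* averaged 57.6 and *Notch3* 40.1 CPM in *Notch2tm1.1Ecan* TNFα cells. In control TNFα cells these means were 41.0 and 22.3 CPM. In both vehicle groups every library had more *Notch1* than *Notch3* per kb. *Notch2* and *Jag1* overlapped in control TNFα cells alone, at 13.8 and 11.3 CPM per kb. Among the low members, *Dll1* and *Jag2* overlapped in control vehicle, *Jag2* and *Notch4* in control vehicle and in *Notch2tm1.1Ecan* TNFα, and *Notch4* and *Dll4* in control TNFα.

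**Figure D1:**
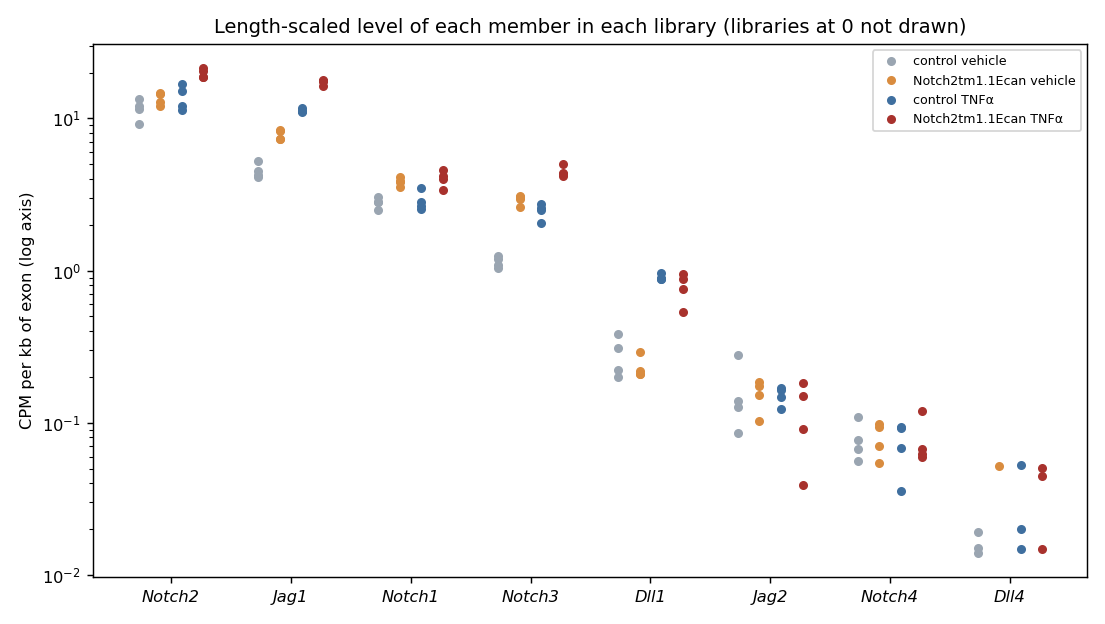
Length-scaled level of each member, in CPM per kb of exon on a log axis, with members ordered from *Notch2* to *Dll4* and 1 point per library, colored by group; libraries at 0 are not drawn. *Notch2* and *Jag1* lie above the rest in every group, and *Dll4* lies at a few counts or none. On this length-scaled axis *Notch3* reaches the level of *Notch1* in the TNFα groups.

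As a share of the length-scaled RNA of the 4 receptors, *Notch2* made up 74.0% ± 1.73 (SD, n = 4) in control vehicle, 66.3% ± 0.992 in *Notch2tm1.1Ecan* vehicle, 71.6% ± 1.90 in control TNFα and 69.7% ± 0.508 in *Notch2tm1.1Ecan* TNFα. The share of *Notch3* was 7.36% ± 0.585, 14.5% ± 0.945, 13.0% ± 1.65 and 15.7% ± 1.02 in the same order. *Jag1* made up 91.2%, 95.2%, 91.3% and 94.9% of the RNA of the 4 ligands. The ligands summed to 5.00 ± 0.636 CPM per kb in control vehicle and to 18.2 ± 0.678 in *Notch2tm1.1Ecan* TNFα. The receptors summed to 15.5 ± 2.04 and 28.3 ± 1.97 CPM per kb in these groups. These 2 groups differ in both genotype and treatment and had the lowest and the highest sums. In *Notch2tm1.1Ecan* vehicle and control TNFα cells the ligands summed to 8.22 ± 0.615 and 12.4 ± 0.301 CPM per kb. The receptors summed to 20.3 ± 1.55 and 19.2 ± 3.03 CPM per kb there.

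**Figure D2:**
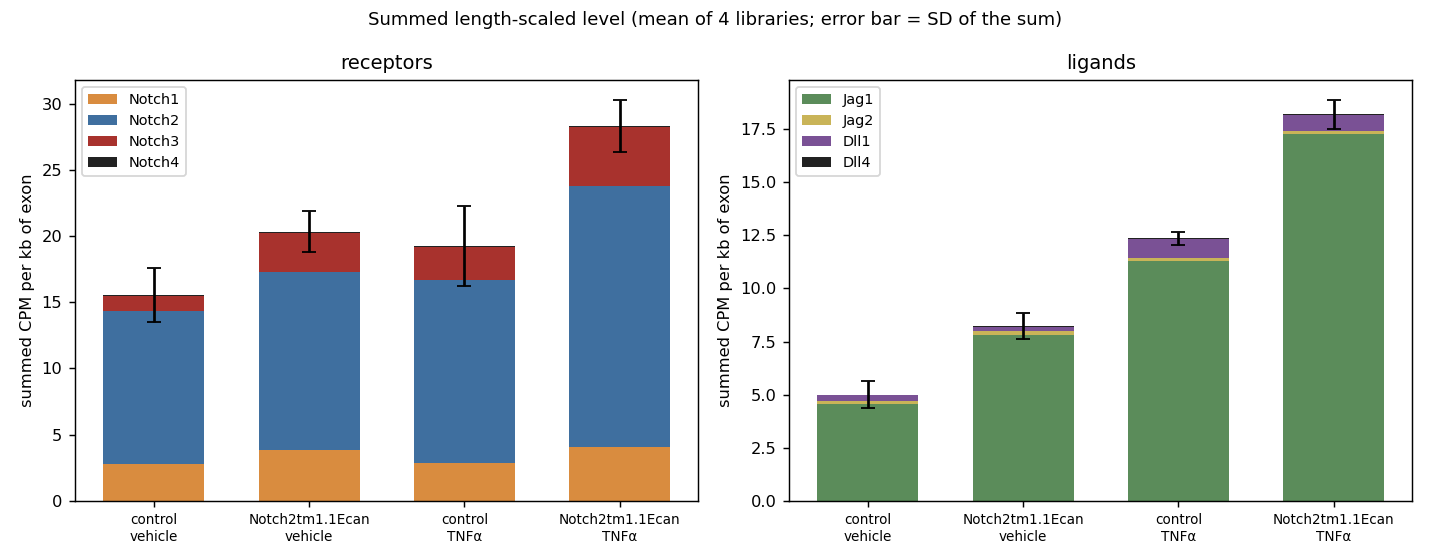
Summed length-scaled level of the receptors (left) and the ligands (right) in CPM per kb of exon; each bar stacks the mean of 4 libraries for each gene and the error bar is the SD of the sum. *Notch2* fills most of each receptor bar and *Jag1* most of each ligand bar, and the *Notch3* band is wider in the 3 groups other than control vehicle.

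The first comparison asked whether *Notch2* and the other members differed between *Notch2tm1.1Ecan* and control cells under vehicle. *Notch3* and *Jag1* were higher in *Notch2tm1.1Ecan* than in control cells, *Notch1* was higher to a smaller extent, and *Notch2* itself did not pass the edgeR test. Of 7 members tested, 3 passed an adjusted p of 0.05, all higher, where 10.5% of all 19432 genes passed in either direction, 6.19% higher and 4.35% lower. *Notch3* alone also had a log2 fold change of at least 1, as did 1.26% of all genes. The median log2 fold change of the 7 was 0.23, and that of all genes tested was -0.00199. *Dll4*, with under 10 counts in the 8 libraries, was not tested.

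*Notch2* (ENSMUSG00000027878, GRCm39 chromosome 3, 97920800 to 98057677) was at 129, 135, 104 and 151 CPM in the 4 control vehicle libraries and at 136, 162, 145 and 164 CPM in the *Notch2tm1.1Ecan* vehicle libraries. The groups overlapped, control replicate 4 exceeding 2 of the 4 mutant libraries. Control replicate 4 is the library with raised TNFα-induced genes, and the other control libraries lay below every mutant library. With 1 library left out in turn, the log2 fold change ran from 0.14 to 0.31, and none of these fits called *Notch2*. The log2 fold change was 0.23 (SE 0.11, adjusted p = 0.283 by the edgeR quasi-likelihood test). This call changed with the settings: the adjusted p of *Notch2* ranged from 0.0043 to 0.488 over the alternatives and was lowest with no filter beyond 1 count. Counts per gene do not read the altered codon, so they give no check of the genotype.

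*Notch3* (ENSMUSG00000038146, chromosome 17, 32339794 to 32385893), the receptor best known from vascular smooth muscle and pericytes, was at 10.7, 9.75, 9.33 and 11.2 CPM in control and at 26.6, 27.6, 23.7 and 27.9 CPM in *Notch2tm1.1Ecan* cells. Every mutant library was above every control library. The increase was 2.59-fold (95% interval 2.28 to 2.94), with a log2 fold change of 1.37 (SE 0.088, adjusted p = 1.43e-10).

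*Jag1* (ENSMUSG00000027276, chromosome 2, 136923373 to 136958693), the main ligand in these cells, was at 24.7, 27.0, 25.5 and 31.3 CPM in control and at 43.6, 50.0, 49.2 and 43.6 CPM in *Notch2tm1.1Ecan* cells. The groups did not overlap. The increase was 1.72-fold (95% interval 1.54 to 1.93, log2 0.79, adjusted p = 1.66e-07).

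*Notch1* (ENSMUSG00000026923, chromosome 2, 26347915 to 26406675) was at 40.2, 40.0, 35.6 and 43.6 CPM in control and at 50.2, 55.0, 53.9 and 58.7 CPM in *Notch2tm1.1Ecan* cells, again without overlap. It was 1.37-fold higher (95% interval 1.25 to 1.51, log2 0.46, adjusted p = 3.63e-05). The groups of these 3 genes were the ones that did not overlap among the members, where 16.2% of all genes tested had groups that did not overlap.

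The low members gave wide intervals. *Dll1* was at 1.38 ± 0.423 CPM in control and 1.15 ± 0.203 CPM (SD, n = 4) in *Notch2tm1.1Ecan* cells, with a log2 fold change of -0.28 and a 95% interval from -0.85 to 0.28. *Jag2* had a log2 fold change of -0.04 (95% interval -0.73 to 0.64) and *Notch4*, a receptor known from endothelium, one of 0.01 (95% interval -0.74 to 0.77), and libraries of these 2 genes held between 9 and 47 counts in the 8 vehicle libraries. The intervals of *Jag2* and *Notch4* take in changes as large as that of *Notch1* in either direction.

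**Figure D3:**
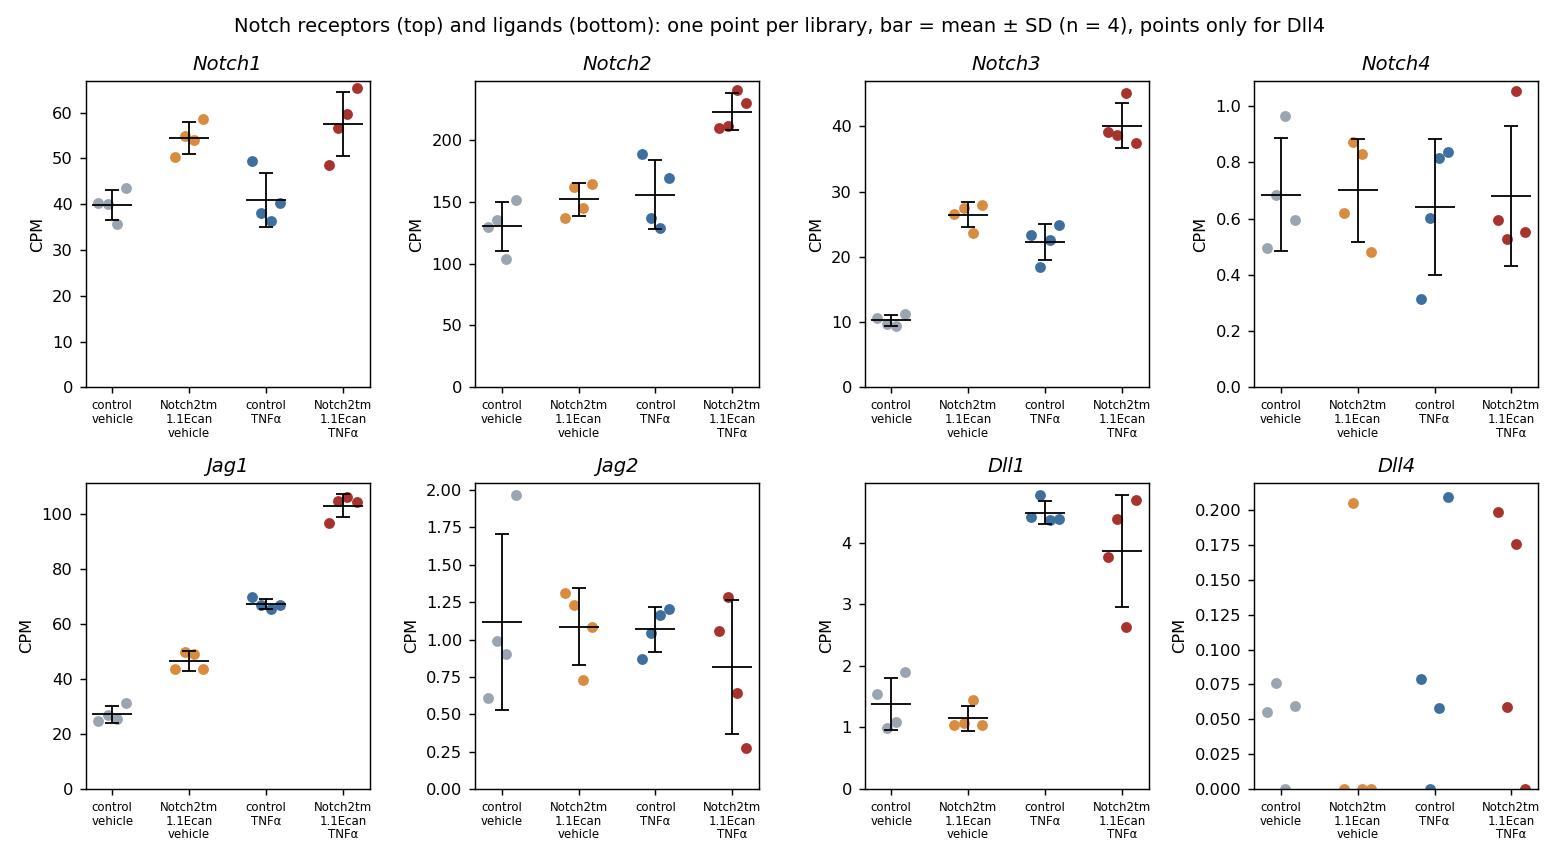
CPM of each receptor (top row) and ligand (bottom row) in each library, with 1 point per library, and the mean and SD (n = 4) for all but *Dll4*; each axis starts at 0 and has its own scale. *Notch3* and *Jag1* are lowest in control vehicle and highest in *Notch2tm1.1Ecan* TNFα. *Dll1* is higher in both TNFα groups than in the vehicle groups, and *Notch1* is higher in both mutant groups. The groups of *Notch4*, *Jag2* and *Dll4* overlap.

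Markers of cell types other than chondrocytes moved with genotype. In vehicle-treated cells, where 10.5% of all genes passed, 7 of 10 mural cell markers were higher in *Notch2tm1.1Ecan* cells. Their sum ranged from 2553 to 2815 CPM in control and from 4387 to 4999 CPM in the mutant. Its largest part was *Acta2*, at 1434 ± 107 and 2739 ± 176 CPM (SD, n = 4). The means of *Rgs5* (4.18 and 3.46 CPM) and *Cspg4* (330 and 287 CPM) were lower in the mutant, and neither gene passed. Of 10 endothelial markers 7 were higher. The list summed to 7.41 to 9.70 CPM in control and 17.7 to 22.7 CPM in the mutant, with *Sox17* at 0 in all 4 control libraries. Its largest part was *Tek*, at 5.68 ± 0.453 and 12.4 ± 1.62 CPM. Of 11 macrophage markers 8 were higher, and the list summed to 72.4 to 79.0 CPM against 134 to 157 CPM. *Lyz2* was the largest part of it, at 38.9 ± 1.77 and 74.2 ± 6.40 CPM. Of 5 skeletal muscle markers tested 2 were higher, and the list summed to 5.48 to 6.78 CPM against 9.80 to 13.3 CPM. *Pax7*, the member of the list that was not tested, was at 0 in all 8 libraries. All 10 chondrocyte markers were lower, their sum ranging from 49369 to 53208 CPM in control and from 30890 to 35780 CPM in the mutant. The part of such cells in the higher *Notch3*, *Jag1* and *Notch1* was not tested.

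The same comparison was made in TNFα-treated cells. *Notch3*, *Jag1*, *Notch1* and *Notch2* were higher in *Notch2tm1.1Ecan* than in control cells. Of 8 members tested, 4 passed, all higher, where 9.94% of all 19227 genes passed in either direction, 5.63% higher and 4.31% lower. None of the 4 had a log2 fold change of at least 1, which 1.41% of all genes passed with. The median log2 fold change was 0.50 over the members and -0.01 over all genes tested.

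*Notch2* was at 188, 137, 129 and 169 CPM in the control TNFα libraries and at 209, 211, 240 and 230 CPM in the *Notch2tm1.1Ecan* TNFα libraries. All mutant libraries were above all control libraries, and the control libraries varied more among themselves than the mutant ones did. The increase was 1.44-fold (95% interval 1.20 to 1.73, log2 0.53, adjusted p = 0.0178). Without mutant replicate 3 the adjusted p was 0.0567, and without mutant replicate 4, the shallow library, it was 0.108.

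*Notch3* was at 23.3, 18.4, 22.6 and 24.8 CPM in control TNFα and at 39.2, 38.6, 45.2 and 37.5 CPM in *Notch2tm1.1Ecan* TNFα libraries, 1.83-fold higher (95% interval 1.61 to 2.08, adjusted p = 4.13e-08). *Jag1* was at 69.9, 66.9, 65.3 and 66.9 CPM in control and at 96.8, 105, 106 and 104 CPM in mutant libraries, 1.54-fold higher (95% interval 1.42 to 1.68, adjusted p = 1.90e-08). Neither gene overlapped between the genotypes. *Notch1* was 1.40-fold higher (95% interval 1.20 to 1.63, adjusted p = 0.00487), but control replicate 1, at 49.5 CPM, exceeded mutant replicate 1, at 48.5 CPM. The 3 members *Notch2*, *Notch3* and *Jag1* thus had groups that did not overlap, where 14.8% of all genes did.

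*Dll1* was at 4.49 ± 0.192 CPM in control TNFα and 3.87 ± 0.909 CPM (SD, n = 4) in *Notch2tm1.1Ecan* TNFα cells, with a log2 fold change of -0.27 (95% interval -0.65 to 0.12, adjusted p = 0.454). *Jag2* and *Notch4* did not pass, with log2 fold changes of -0.22 (95% interval -0.93 to 0.50) and 0.11 (95% interval -0.74 to 0.97). *Dll4* summed to 6 counts in control TNFα and 7 counts in mutant TNFα cells, and no fold is given. The sums of the marker lists kept to the direction they had in vehicle: the mural sum was 1572 to 1871 CPM in control TNFα against 2617 to 2839 CPM in mutant TNFα cells, the endothelial sum 9.77 to 12.6 against 18.9 to 25.7 CPM, the macrophage sum 85.3 to 101 against 176 to 202 CPM, the skeletal muscle sum 1.81 to 6.31 against 7.19 to 18.2 CPM, and the chondrocyte sum 35462 to 42164 against 19397 to 21918 CPM. *Tek* and *Lyz2* were again the largest parts of the endothelial and macrophage sums. In single genes, where 9.94% of all genes tested passed, 10 of 10 chondrocyte markers were lower. Of the mural markers tested 5 of 9 were higher, as were 3 of 9 endothelial, 9 of 11 macrophage and 1 of 5 skeletal muscle markers. The means of *Rgs5* (7.14 and 5.40 CPM) and *Cspg4* (344 and 300 CPM) were again lower in the mutant, and neither gene passed.

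The next comparison asked how the members differed between TNFα and vehicle in control cells. The ligands *Dll1* and *Jag1* rose, and *Notch3* was the receptor that rose with them. Of 7 members tested, 3 passed, all higher, where 44.2% of all 19338 genes passed in either direction, 23.3% higher and 20.9% lower, so the share of members called, 42.9%, was close to that of all genes. All 3 had a log2 fold change of at least 1, as did 11.8% of all genes. The median log2 fold change was 0.27 over the members and 0.04 over all genes tested.

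*Dll1* (ENSMUSG00000014773, chromosome 17, 15587276 to 15597134), a Delta-like ligand, was at 1.55, 0.990, 1.09 and 1.90 CPM in control vehicle and at 4.41, 4.77, 4.37 and 4.39 CPM in control TNFα libraries. The lowest TNFα library was above the highest vehicle library. The rise was 3.19-fold (95% interval 2.36 to 4.32, log2 1.68, adjusted p = 8.42e-07), on 90 counts in the vehicle group and 302 in the TNFα group. Its exons overlap those of *Fam120b*, which lies on the opposite strand, and the strand setting of the counting was not given.

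*Jag1* rose from 27.1 ± 2.95 CPM to 67.3 ± 1.89 CPM (SD, n = 4), or 2.49-fold (95% interval 2.25 to 2.76, log2 1.32, adjusted p = 1.38e-11). *Notch3* rose from 10.2 ± 0.870 CPM to 22.3 ± 2.76 CPM, or 2.17-fold (95% interval 1.88 to 2.52, log2 1.12, adjusted p = 9.40e-09). The vehicle and TNFα libraries of these genes, given above, did not overlap, and 41.8% of all genes tested had groups that did not. Control vehicle replicate 4, the library with raised TNFα-induced genes, was the highest of its group for *Dll1*, *Jag1*, *Jag2*, *Notch1*, *Notch2* and *Notch3*. With both control libraries numbered 4 left out, 3 members were called.

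*Notch2* was at 130 ± 19.7 CPM in control vehicle and 156 ± 28.0 CPM in control TNFα cells, with a log2 fold change of 0.27 (SE 0.17, 95% interval -0.15 to 0.69, adjusted p = 0.279). Over the alternatives its adjusted p ranged from 0.0192 to 0.503, and 1 of 17 called it. *Notch1* was at 39.9 ± 3.27 and 41.0 ± 5.89 CPM, with an interval from -0.17 to 0.25 around a log2 fold change of 0.04. *Notch4* and *Jag2* had log2 fold changes of -0.04 each, with intervals reaching -0.86 and 0.78 for *Notch4* and -0.75 and 0.67 for *Jag2*. *Dll4* summed to 3 counts in control vehicle and was not tested.

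In *Notch2tm1.1Ecan* cells, TNFα raised *Dll1*, *Jag1*, *Notch3* and *Notch2*. Of 8 members tested, 4 passed, all higher, where 44.5% of all 19633 genes passed in either direction, 22.6% higher and 21.9% lower. *Dll1* and *Jag1* had a log2 fold change of at least 1, as did 13.9% of all genes. The median log2 fold change was 0.58 over the members and 0.03 over all genes tested. The same 4 members had groups that did not overlap, which held for 40.2% of all genes tested.

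*Dll1* rose 3.26-fold (95% interval 2.32 to 4.57, log2 1.71, adjusted p = 1.01e-06), from 1.03, 1.08, 1.45 and 1.04 CPM to 3.77, 4.39, 2.63 and 4.69 CPM. *Jag1* rose 2.21-fold (95% interval 2.01 to 2.44, log2 1.15, adjusted p = 8.22e-14), from 46.6 ± 3.51 to 103 ± 4.24 CPM (SD, n = 4). *Notch3* rose 1.53-fold (95% interval 1.36 to 1.71, log2 0.61, adjusted p = 3.69e-07), from 26.4 ± 1.91 to 40.1 ± 3.42 CPM. *Notch2* rose 1.46-fold (95% interval 1.33 to 1.61, log2 0.55, adjusted p = 1.45e-07), from 152 ± 13.5 to 223 ± 15.1 CPM. *Notch1* was at 54.4 ± 3.48 and 57.6 ± 7.05 CPM (log2 fold change 0.06, 95% interval -0.10 to 0.22). *Jag2* and *Notch4* did not pass, at -0.22 (95% interval -0.92 to 0.48) and 0.06 (95% interval -0.73 to 0.86).

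Marker lists were also read between TNFα and vehicle, where 44.2% of all genes passed in control and 44.5% in *Notch2tm1.1Ecan* cells. In control cells the lists above that share were the chondrocyte markers, with 9 of 10 lower, and the mural markers, with 7 of 10 lower and 1 higher. The other lists were below it, with 3 of 11 macrophage markers higher and 1 lower, 1 of 9 endothelial markers tested higher, and 1 of 5 skeletal muscle markers lower. In *Notch2tm1.1Ecan* cells 9 of 10 chondrocyte markers and 8 of 10 mural markers were lower, 1 mural marker was higher, and 7 of 11 macrophage markers were higher and 1 lower, whereas 1 of 10 endothelial markers was lower and 0 of 5 skeletal muscle markers tested passed the edgeR test, with 0 at an unadjusted p under 0.05.

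The mural markers that passed with TNFα did not all change in the same direction. Their sum ranged from 2553 to 2815 CPM in control vehicle and from 1572 to 1871 CPM in control TNFα libraries, and *Acta2*, the smooth muscle actin, was the most abundant of them, at 1434 ± 107 and 732 ± 72.0 CPM (SD, n = 4). The mural marker that rose was *Rgs5*, known from pericytes and named here after its values were seen, from 4.18 ± 0.322 to 7.14 ± 0.947 CPM in control and from 3.46 ± 0.589 to 5.40 ± 0.340 CPM in *Notch2tm1.1Ecan* cells. The part of such cells in the rise of *Notch3* and the other members was not tested.

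The last comparison asked whether the change with TNFα differed between genotypes. No member passed in the edgeR fit, where 0.474% of all 21321 genes passed, 0.267% with a higher and 0.206% with a lower value. DESeq2 also called 0 of 8 members. In the edgeR fit 1 of 8 had an unadjusted p under 0.05. That gene was *Notch3*, whose log2 change with TNFα was 0.50 smaller in *Notch2tm1.1Ecan* than in control cells (-0.50, SE 0.13, 95% interval -0.77 to -0.24, adjusted p = 0.0702). Over the alternatives tried its adjusted p ranged from 0.00568 to 0.170. Leaving out control vehicle replicate 4, mutant vehicle replicate 3 or control TNFα replicate 2 gave 0.032, 0.0377 and 0.0243.

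*Notch2* passed with TNFα in *Notch2tm1.1Ecan* and not in control cells, but the difference between the changes was 0.29 on the log2 scale with a 95% interval from -0.11 to 0.69 (adjusted p = 0.721). For *Jag1* the difference was -0.17 (95% interval -0.36 to 0.03, adjusted p = 0.677) and for *Dll1* 0.03 (95% interval -0.60 to 0.66). In the fit of all 16 libraries, at an adjusted p of 0.05, the response of no member was thus shown to differ between the genotypes. The interval of *Notch3* left out 0 and its call changed in 5 of 24 alternatives, while the intervals of *Dll1*, *Jag2* and *Notch4* were wide.

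**Figure D4:**
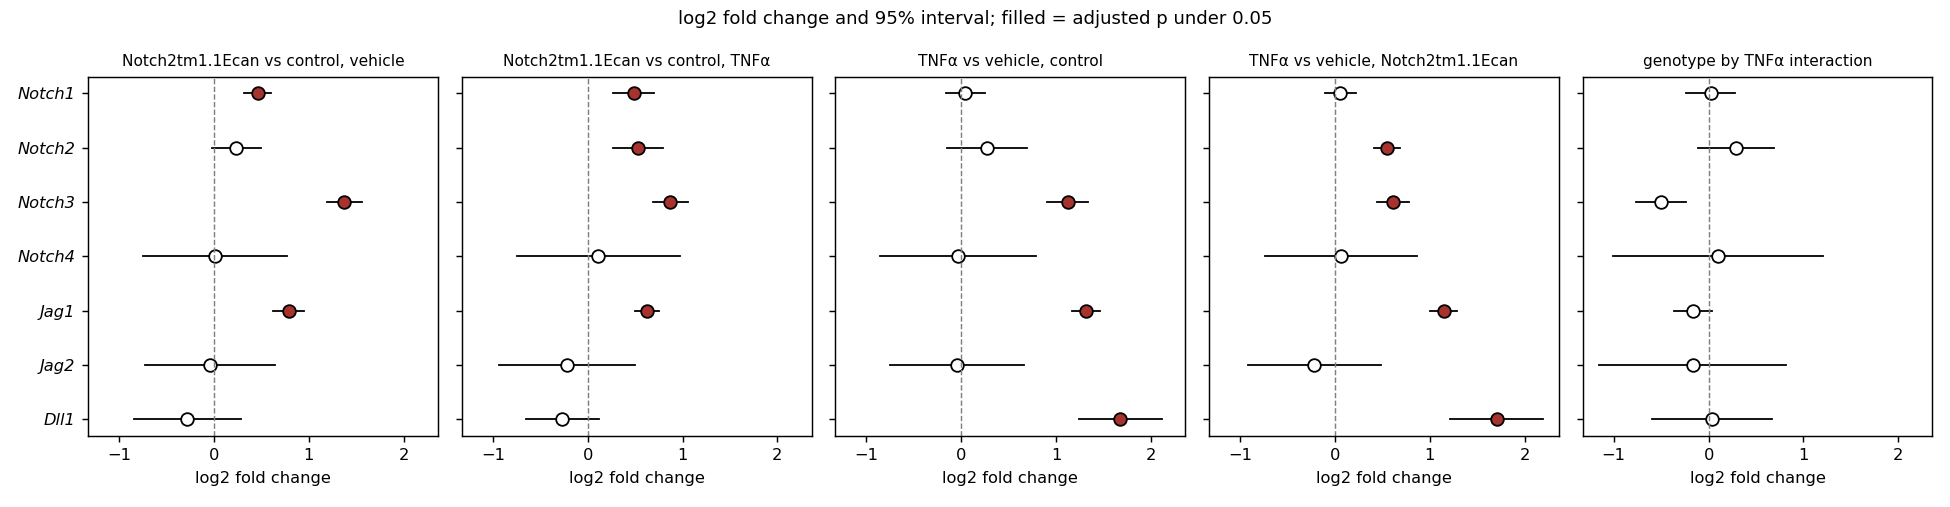
log2 fold change (point) and 95% interval (line) of 7 members in the 4 comparisons and the genotype by TNFα interaction; filled points had an adjusted p under 0.05. *Notch3* and *Jag1* are filled in the first 4 panels, *Dll1* in both TNFα panels, *Notch1* in both genotype panels and *Notch2* in the second and the fourth.

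Other genes of the pathway were read from 7 lists of 45 genes. In vehicle-treated cells 5 of 43 genes tested were higher and 3 lower in *Notch2tm1.1Ecan* cells, 18.6% in all against 10.5% of all genes, with a median log2 fold change of 0.02 against -0.00199. Of 5 target genes tested, 3 were higher. *Heyl*, a transcriptional repressor and direct target, was at 0.232 ± 0.0617 CPM in control and 1.95 ± 0.411 CPM (SD, n = 4) in the mutant, 8.21-fold higher (95% interval 5.11 to 13.2). *Hes1*, the classical target repressor, was at 15.99 ± 3.04 and 24.4 ± 1.41 CPM, 1.53-fold higher (adjusted p = 0.000405). *Lfng*, a glycosyltransferase that adds sugars to Notch receptors and alters which ligands they answer to, was at 11.5 ± 1.19 and 21.3 ± 1.79 CPM, 1.85-fold higher. In the nuclear complex, *Maml2*, a coactivator, was higher (log2 0.46) and *Rbpj*, the DNA-binding partner of all Notch intracellular domains, was lower (log2 -0.27). *Dlk1*, an atypical ligand, and *Dtx3*, of the Deltex family, were lower by log2 -0.27 and -0.26. No gene of receptor cleavage or ligand endocytosis passed in the edgeR fit, where 0 of 10 and 1 of 4 had an unadjusted p under 0.05.

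In TNFα-treated cells 4 of 43 pathway genes tested were higher and 2 lower in *Notch2tm1.1Ecan* cells, 13.95% in all against 9.94% of all genes. *Heyl* was 5.50-fold higher (95% interval 3.02 to 10.0), at 0.282 ± 0.198 and 1.70 ± 0.372 CPM. *Lfng* was 1.52-fold higher (adjusted p = 0.0422), with overlapping libraries. *Maml2* (log2 0.24) and *Numbl* (log2 0.20), related to the Notch antagonist Numb, were higher, and *Dlk1* (log2 -0.31) and *Mib2*, a ubiquitin ligase for ligand endocytosis (log2 -0.23), were lower. *Hes1*, at 3.26 ± 1.62 and 4.75 ± 1.28 CPM, had a log2 fold change of 0.62 and an adjusted p of 0.211.

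With TNFα, 11 of 42 pathway genes tested rose and 10 fell in control cells, 50% in all against 44.2% of all genes, and 11 of 44 rose and 12 fell in *Notch2tm1.1Ecan* cells, 52.3% against 44.5%. The targets that passed fell. *Hes1* fell from 15.99 ± 3.04 to 3.26 ± 1.62 CPM in control cells (log2 -2.26, adjusted p = 0.000498) and from 24.4 ± 1.41 to 4.75 ± 1.28 CPM in *Notch2tm1.1Ecan* cells (log2 -2.24). *Hey1* fell in both genotypes (log2 -0.91 and -1.40), and *Hey2* fell in *Notch2tm1.1Ecan* cells (log2 -2.39) from 0.701 to 0.159 CPM. *Heyl* did not pass with TNFα, with log2 fold changes of 0.31 (SE 0.63) in control and -0.27 (SE 0.25) in mutant cells. *Hes5* had 0 counts in every library.

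Genes that process the receptors moved in both directions. *Adam17*, a protease that sheds many surface proteins and can cut Notch, rose from 88.8 ± 14.4 to 265 ± 17.5 CPM in control cells (3.00-fold) and from 80.2 ± 7.68 to 252 ± 18.1 CPM in *Notch2tm1.1Ecan* cells (3.13-fold). *Psen2*, a catalytic subunit of γ-secretase, rose by log2 1.03 and 1.20, and *Furin*, which cuts the receptor precursor, fell by 0.17 and 0.16 on the log2 scale. *Lfng* fell to 3.79 ± 1.06 and 5.49 ± 0.904 CPM (log2 -1.61 and -1.89), and *Poglut1*, a glucosyltransferase for the receptors, rose (log2 0.66 and 0.49). *Rfng*, of the Fringe family with *Lfng*, fell in control cells (log2 -0.22).

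Among ligand and turnover genes, *Dlk2*, an atypical ligand that lacks the DSL domain, fell from 15.1 ± 3.05 to 2.57 ± 2.09 CPM in control cells (log2 -2.47) and from 12.8 ± 1.02 to 1.14 ± 0.320 CPM in *Notch2tm1.1Ecan* cells (log2 -3.40). *Dner* fell in *Notch2tm1.1Ecan* cells (log2 -1.42), and *Cntn1*, a cell adhesion protein, rose in both genotypes (log2 0.71 and 1.02). *Dtx4* rose in both (log2 1.01 and 1.46), as did *Neurl1b* (log2 0.33 and 0.42), whereas the ubiquitin ligases *Itch* (log2 -0.29 and -0.33) and *Nedd4* (log2 -0.31 and -0.28) fell. *Dtx2* and *Dtx3* also rose in both, by log2 0.63 for *Dtx2* in control and log2 0.52 for *Dtx3* in *Notch2tm1.1Ecan* cells, and *Mib2* rose in control cells (log2 0.20). *Rbpj* rose in both genotypes (log2 0.33 and 0.44), and *Spen*, a corepressor, and *Maml2* fell in *Notch2tm1.1Ecan* cells (log2 -0.24 each). In the genotype by TNFα interaction 0 of 44 pathway genes passed in the edgeR fit, and 3 had an unadjusted p under 0.05.

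**Figure D5:**
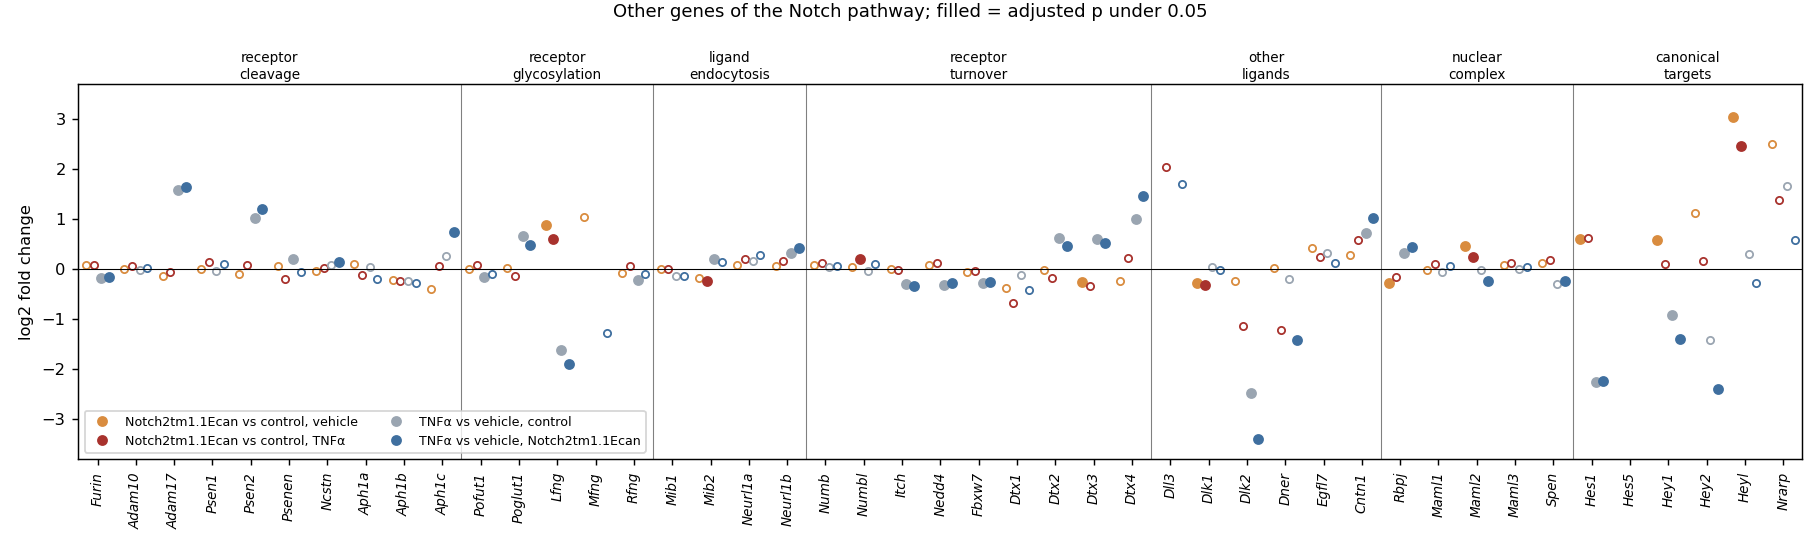
log2 fold change of each tested gene of the 7 pathway lists in the 4 comparisons, colored by comparison; filled points had an adjusted p under 0.05. *Adam17* and *Psen2* lie above 0 and *Lfng*, *Dlk2* and *Hes1* below it in both TNFα comparisons, and *Heyl* lies highest in both genotype comparisons.

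The genes whose pattern over the 16 libraries was most like that of a member were found from the root mean square difference of log2(CPM + 0.5) after each gene was centered, over 13430 genes with a mean of at least 1 CPM. Nearest to *Notch3* were *S1pr1*, a sphingosine 1-phosphate receptor, *Col18a1*, a basement membrane collagen, and *Tnfaip8l3*, at differences of 0.161, 0.196 and 0.226, where the median gene differed by 0.750. Nearest to *Jag1* were *Plxnd1*, a semaphorin receptor, *Rarres2* and *Mgst1*, at 0.136, 0.150 and 0.156 (median gene 0.746). Nearest to *Notch2* were *Mycbp2*, the laminin gene *Lamb1* and *Cep350*, at 0.0982, 0.111 and 0.122, and nearest to *Notch1* were the basement membrane genes *Nid1* and *Lamc1* and the kinesin *Kif1a*, at 0.128, 0.128 and 0.130. *Dll1* lay nearest to *Rab11bos1*, *Smox* and *Ccdc122* (0.188 to 0.192), and *Jag2* to *Aste1*, *Ttc1* and *Pet100* (0.233 to 0.235), the latter against a median gene at 0.424. The points share their libraries and depth, and the likeness is a description.

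All members share exons with another annotated gene (for *Notch2* the same-strand *Gm42820*, for *Notch1*, *Notch3* and *Dll4* antisense lncRNAs), and how the counting divided such reads was not given. *Notch1* and *Notch2* have long exon sets of 14232 and 11264 bases. A set of 3732 genes with at least 8 kb of exon and 10 CPM was chosen after the values of the members were seen. It had a median log2 difference of -0.02 and -0.01 between genotypes and of -0.05 and -0.04 between treatments. In single libraries its median log2 ratio to the group mean ran from -0.0607 to 0.0577, in *Notch2tm1.1Ecan* TNFα replicates 4 and 3. The part of exon length in the values of *Notch1* and *Notch2* was not tested.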

How the data were processed

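RNA-Seq counts of 16 libraries were read as the authors deposited them: 1 file of whole-number counts per Ensembl gene for each library, not normalized. Libraries were made with a stranded mRNA kit, run as 1 pool, aligned with HISAT2 and counted with HTSeq. The labels name HISAT2 2.1.0, SAMtools 1.9 and GRCm38, whereas the study's methods name a later HISAT2 and GRCm39, and the strand setting of the counting is not given in the sources used here. Summary entries that name no gene held 8.81% to 12.1% of the reads in each file and were left out. Gene names, positions and exon lengths came from GENCODE M39 (GRCm39). 665 identifiers, with 0.0182% of the counts, had no name there. No column of samples outside the series was present.

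Each pairwise comparison was fitted on its 8 libraries, and the interaction on all 16, with genes of at least 10 summed counts, TMM scaling and the edgeR quasi-likelihood test (edgeR 4.0.16, R 4.3.3), with no covariate. p-values were adjusted by Benjamini-Hochberg over all genes tested and called under 0.05. The study used DESeq2 with covariates it does not name, so DESeq2 1.42.0 was an alternative. CPM values use TMM-scaled library sizes. Intervals are 95% intervals of the fit. The scripts were tested on simulated data. Alternatives were another scaling, other count filters, other call rules, a replicate block, 1 fit over all libraries, and leaving out each library in turn or both control libraries numbered 4.

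The members and gene lists were chosen with earlier results of these data known. Besides the members, up to 2 of the largest rises and 2 of the largest falls among called genes of each pathway list were named in each comparison, and the 3 genes most like each member with a mean of at least 1 CPM. Values of *Heyl*, *Hes1*, *Hes5*, *Hey1* and *Dtx2* or *Dtx3* given where this rule did not name them were chosen after their values were seen. The same holds for the marker and TNFα-induced genes given with values. The lowest depth, 3439726 counts, makes 3 counts worth 0.872 CPM, and counting error alone limits *Notch4*, *Jag2*, *Dll1* and *Dll4*. No 2 libraries of a group agreed within sampling noise.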

Additional observations from a re-analysis of the deposited data

Results flagged for a closer look

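With 8 members and 4 groups, 32 sets of 4 libraries were screened for a library far from the other 3. For normally distributed values chance flags about 1 in 20 such sets, but the rate is not known for members with few counts. In 4 sets a library stood apart, each in a member of low level. *Notch4* was at 1.05 CPM in *Notch2tm1.1Ecan* TNFα replicate 3, on 18 counts, where the other libraries of the group lay between 0.526 and 0.596 CPM. *Dll1* was at 1.45 CPM in *Notch2tm1.1Ecan* vehicle replicate 3, the others lying between 1.03 and 1.08 CPM, and at 4.77 CPM in control TNFα replicate 2, the others lying between 4.37 and 4.41 CPM. *Dll4* was at 0.205 CPM in *Notch2tm1.1Ecan* vehicle replicate 2, on 4 counts, with the others at 0.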

How the results depend on the processing

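The 14 calls of members kept their direction in all 227 values under the alternatives. These values include the other call rules, which were applied to the main fit and could not change a direction. Of the 227 values, 10 lost their call, 8 of them where a log2 fold change of at least 1 was also asked for. The other 2 were for *Notch2* between genotypes in TNFα, when mutant TNFα replicate 3 (0.48) or 4 (0.50) was left out. With the fold rule 1 member was called between genotypes in vehicle, 0 in TNFα, and 2 with TNFα in *Notch2tm1.1Ecan* cells, and the counts over all genes became 244, 272, 2279 (TNFα in control), 2720 and 10 (interaction). In the interaction, 174 genes were called by DESeq2 and 266 with no filter beyond 1 count, and leaving out 1 library gave 51 to 156 genes and 0 to 1 member. *Notch3* was that member, also with no filter (-0.52) or at an adjusted p under 0.1, giving 1 member each. *Notch2* between genotypes in vehicle was called with no filter (log2 0.23, adjusted p = 0.0043). The cause of these changes was not tested. Both control libraries numbered 4 were left out together only where both entered the fit.

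Same-numbered libraries did not deviate together in every comparison. The lowest correlation, -0.19, was that of the control vehicle and control TNFα libraries numbered 4, the 2 that stood apart on the first principal component. The highest, 0.14, was that of the *Notch2tm1.1Ecan* libraries numbered 1, and all same-numbered pairs of that genotype were positive between TNFα and vehicle. Equal numbers are thus not known to mark a shared source. With the replicate number as a block, 4 members were called between genotypes in vehicle, *Notch2* being added (0.24, adjusted p = 0.00923), and 4 with TNFα in control cells, again with *Notch2* (0.26, adjusted p = 0.0192). *Notch4* with TNFα in *Notch2tm1.1Ecan* cells was -0.083 with the block.

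Of 396 values of members that were not called, again with the other call rules counted, 40 changed sign. These were *Notch4* between genotypes in vehicle with filterByExpr (-0.0021) and -0.13 to 0.23 with 1 library left out, and *Jag2* there at -0.27 to 0.39. In TNFα *Notch4* ranged from -0.23 to 0.25. With TNFα in control cells *Notch1* ranged from -0.059 to 0.099, *Notch4* from -0.19 to 0.17 and *Jag2* from -0.28 to 0.40, with *Jag2* at 0.34 without both control libraries numbered 4. In *Notch2tm1.1Ecan* cells *Notch4* ranged from -0.28 to 0.22. In the interaction *Notch1* ranged from -0.043 to 0.12, *Notch4* from -0.24 to 0.26, *Jag2* from -0.63 to 0.040 and *Dll1* from -0.18 to 0.20, and without both control libraries numbered 4 *Notch1* was at -0.032 and *Dll1* at -0.17. Depth limits *Notch4*, *Jag2* and *Dll4*, which had at most 47 counts in a library.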
